A study of Homo sapiens with 4 samples.

Results

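The genes described here encode the machinery that transcribes the nuclear genome: the subunits of RNA polymerases I, II and III, the Mediator complex, the TAF proteins and the general transcription factors of the GTF2 and GTF3 families. They were chosen by name from a RefSeq table of GRCh38.p14, as protein-coding symbols beginning with POLR1, POLR2 or POLR3 and a letter, MED and a number, TAF and a number, or GTF2 or GTF3, on chromosomes 1 to 22 and X. The rule gave 126 genes out of 19970. It used no measured value. Of the 126 genes, 8 were POLR1, 15 POLR2, 10 POLR3, 30 Mediator, 37 TAF and 26 GTF2 or GTF3 genes. The symbols do not separate complexes cleanly. POLR1C and POLR1D belong to polymerases I and III alike, and POLR2E, POLR2F, POLR2H, POLR2K and POLR2L to all of the nuclear polymerases. The TAF genes include the TAF subunits of SL1, a polymerase I factor, besides those of TFIID.

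The study mapped BRD8, which carries bromodomains and belongs to the TIP60/NuA4 histone acetyltransferase, by chromatin immunoprecipitation and sequencing (ChIP-seq). HCT116 and SW480 are established human colorectal cancer cell lines, grown without any treatment or genetic change named in the labels, HCT116 in McCoy's 5A and SW480 in Leibovitz's L-15 medium. Chromatin of both was fixed in 1% formaldehyde for 10 minutes, cut with micrococcal nuclease and precipitated with 2 µg of an anti-BRD8 polyclonal antibody. Each line has 1 ChIP library and 1 input library, and the analysed data are the 22303 HCT116 and 12874 SW480 peaks on chromosomes 1 to 22 and X. No difference between lines or gene classes has a replicate check, since each line has a single ChIP library, and every count describes these libraries. Of 8 colon epithelial genes, 4 had an HCT116 peak at a gene end and 0 had an SW480 peak, and of 4 blood cell genes 0 had a peak in either line. Peaks do not measure expression, so these counts do not test the identity of the lines.

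RNA polymerase I makes the large ribosomal RNA precursor, polymerase II makes messenger RNA, and polymerase III makes transfer RNA and other short RNAs. Polymerase II is brought to a promoter by TFIID, TFIIA, TFIIB, TFIIE, TFIIF and TFIIH, with Mediator linking it to regulators bound elsewhere, while polymerase III depends on TFIIIB and TFIIIC and polymerase I on SL1 and UBTF. Nearly all dividing cells use the core of this machinery, and several of its genes lie head to head with another gene. The name rule also takes in gene copies, for which such use need not hold.

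BRD8 peaks were frequent at these genes in both lines. In HCT116, 89 of 126 members had a peak summit within 1 kb of either end of the gene, 70.6% (95% Wilson interval 62.2 to 77.9, for counting error only), and the share over all 19970 protein-coding genes was 44%. A gene with such a gene-end peak is called bound, and one without it unbound, for short. In SW480, 51 members did, 40.5% (32.3 to 49.2), and the share over all genes was 22.1%. Both lines had a gene-end peak at 49 members, against 20.3% of all genes. HCT116 alone had one at 40 members (23.7% over all genes), and SW480 alone at 2 members, POLR1D and GTF2IRD1 (1.81% over all genes). The remaining 35 members had none, and 54.2% of all genes had none. Of these 35, 22 are gene copies: 13 TAF11-like genes clustered on chromosome 5, TAF1L, TAF7L, GTF2A1L, POLR2J2, POLR2J3, GTF2H2C, GTF2H2C_2, GTF2IRD2 and GTF2IRD2B. Without these copies 89 of 104 members were bound in HCT116, 85.6%, and 51 in SW480, 49%. Since every copy left out was unbound, these shares could only rise. Other paralogs were kept, among them TAF4B and POLR3GL with a peak and TAF9B without. Copies were not taken out of the all-gene shares. Apart from GTF2H2C_2, none of the 35 had a peak inside the gene or within 5 kb of it in either line. The handling of reads that match several places is not stated in the labels, and its part in their lack of peaks was not tested. The table places GTF2H2C_2 on chromosome 5 at 965642 to 1035028, far from GTF2H2C, so that placement is doubtful and no other value is given for it.

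**Figure D1:**
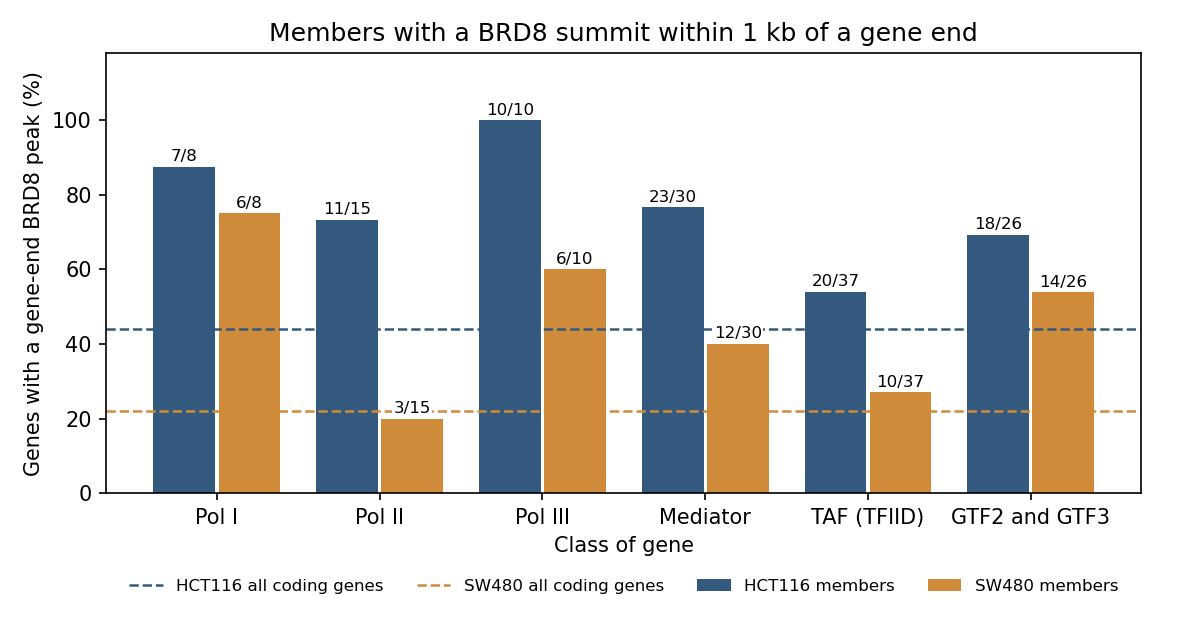
Share of members with a BRD8 summit within 1 kb of a gene end, in percent, by class and line, with the number bound of the number in the class above each bar and dashed lines for all protein-coding genes. POLR3 genes reached 10 of 10 in HCT116, and POLR2 genes were the one class under the all-gene share in SW480, with 3 of 15. Without its unbound gene copies the POLR2 class had 3 of 13, 23.1%, beside 22.1% of all genes with their copies kept.

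Every class had a higher share than all genes in HCT116, and all but the POLR2 genes did in SW480. That exception rests on the unbound gene copies POLR2J2 and POLR2J3. Without them 3 of 13 POLR2 genes were bound in SW480, 23.1%. In HCT116 the bound counts were 7 of 8 POLR1 genes, 11 of 15 POLR2 genes, 10 of 10 POLR3 genes, 23 of 30 Mediator genes, 20 of 37 TAF genes and 18 of 26 GTF2 and GTF3 genes. In SW480 they were 6, 3, 6, 12, 10 and 14. As shares, the POLR2 genes went from 73.3% to 20%, while the POLR1 genes went from 87.5% to 75%. The SW480 share of POLR2 genes was thus near the 22.1% of all genes, and the shares of the other classes ran from 27% for the TAF genes to 75% for the POLR1 genes. The classes are small, and the Wilson intervals for SW480, 7.05 to 45.2 for POLR2 and 40.9 to 92.9 for POLR1, overlap. The SW480 counts also moved with the limits: with the summit within 500 bp of the end 1 POLR1 gene was left, and at a −log10 q of at least 5, 1 POLR2, 7 Mediator and 6 TAF genes were left.

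The promoters printed here are those of the 5 members of highest HCT116 fold with an entry in the promoter table, GTF3C4, GTF3C2, POLR1B, TAF1D and GTF2A1, then GTF3C6, which had the second-highest SW480 fold, MED18 for a peak of HCT116 alone and POLR2C for no peak. GTF3C6, MED18 and POLR2C were picked after their letters and values were seen. Each is the RefSeq (GRCh38.p14) stretch from 250 bases before to 50 bases after the annotated start, 5′ to 3′ on the strand of the gene. GTF3C4 is at chr9:132669785-132670084 (plus strand), GTF3C2 at chr2:27356715-27357014 (minus), POLR1B at chr2:112541786-112542085 (plus), GTF2A1 at chr14:81221341-81221640 (minus) and GTF3C6 at chr6:110958456-110958755 (plus), and in both lines BRD8 peaks covered all 300 bases of each. TAF1D is at chr11:93741446-93741745 (minus), where the HCT116 peak covered all 300 bases and the SW480 peak 33. MED18, at chr1:28328790-28329089 (plus), was covered whole by an HCT116 peak and had no SW480 peak. POLR2C, at chr16:57462429-57462728 (plus), had no peak in either line. Capitals mark the E-box CACGTG and the ETS sequence ACTTCCGG on either strand.
GTF3C4: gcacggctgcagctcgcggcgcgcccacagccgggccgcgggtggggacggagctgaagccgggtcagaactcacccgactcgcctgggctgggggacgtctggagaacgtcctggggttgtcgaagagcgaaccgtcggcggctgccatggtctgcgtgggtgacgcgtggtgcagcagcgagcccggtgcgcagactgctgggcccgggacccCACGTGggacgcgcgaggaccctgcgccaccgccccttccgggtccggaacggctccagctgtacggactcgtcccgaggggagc
GTF3C2: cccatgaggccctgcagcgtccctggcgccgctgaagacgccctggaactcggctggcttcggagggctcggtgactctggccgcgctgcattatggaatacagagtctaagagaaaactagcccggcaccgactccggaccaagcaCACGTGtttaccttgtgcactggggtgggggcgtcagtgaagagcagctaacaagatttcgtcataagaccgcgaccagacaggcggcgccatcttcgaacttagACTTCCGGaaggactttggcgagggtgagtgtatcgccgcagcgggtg
POLR1B: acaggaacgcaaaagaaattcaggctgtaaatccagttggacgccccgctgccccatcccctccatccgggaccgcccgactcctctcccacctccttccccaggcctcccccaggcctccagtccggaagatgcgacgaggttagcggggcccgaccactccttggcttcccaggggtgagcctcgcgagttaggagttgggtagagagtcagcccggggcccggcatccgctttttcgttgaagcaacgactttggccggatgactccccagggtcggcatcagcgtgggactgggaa
TAF1D: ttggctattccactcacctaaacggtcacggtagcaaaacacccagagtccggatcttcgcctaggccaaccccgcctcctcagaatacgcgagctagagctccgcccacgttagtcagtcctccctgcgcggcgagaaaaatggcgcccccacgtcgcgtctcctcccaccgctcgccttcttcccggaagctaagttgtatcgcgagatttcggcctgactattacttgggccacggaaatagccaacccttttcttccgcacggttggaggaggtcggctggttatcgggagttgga
GTF2A1: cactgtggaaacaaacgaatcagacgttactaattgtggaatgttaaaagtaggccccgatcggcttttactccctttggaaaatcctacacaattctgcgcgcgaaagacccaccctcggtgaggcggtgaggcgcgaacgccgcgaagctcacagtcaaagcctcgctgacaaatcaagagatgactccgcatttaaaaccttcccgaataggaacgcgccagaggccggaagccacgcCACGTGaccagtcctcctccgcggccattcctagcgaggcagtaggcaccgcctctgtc
GTF3C6: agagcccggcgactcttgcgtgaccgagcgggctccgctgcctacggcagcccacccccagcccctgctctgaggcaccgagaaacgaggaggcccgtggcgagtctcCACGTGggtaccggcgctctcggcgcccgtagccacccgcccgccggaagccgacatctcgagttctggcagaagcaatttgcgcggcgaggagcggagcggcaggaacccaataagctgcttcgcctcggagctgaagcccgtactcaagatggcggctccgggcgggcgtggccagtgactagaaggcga
MED18: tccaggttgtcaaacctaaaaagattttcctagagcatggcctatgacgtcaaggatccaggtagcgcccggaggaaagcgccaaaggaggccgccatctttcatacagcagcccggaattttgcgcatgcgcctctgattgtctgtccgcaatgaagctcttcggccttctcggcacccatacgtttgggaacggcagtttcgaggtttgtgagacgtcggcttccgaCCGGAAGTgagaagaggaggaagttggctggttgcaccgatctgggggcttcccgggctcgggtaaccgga
POLR2C: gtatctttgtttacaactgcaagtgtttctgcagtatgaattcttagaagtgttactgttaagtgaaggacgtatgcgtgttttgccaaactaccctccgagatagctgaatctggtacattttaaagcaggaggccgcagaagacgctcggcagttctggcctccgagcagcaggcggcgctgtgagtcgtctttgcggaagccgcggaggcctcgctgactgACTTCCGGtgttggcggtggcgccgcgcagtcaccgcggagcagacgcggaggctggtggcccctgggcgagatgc
GTF3C4, GTF3C2, GTF2A1 and GTF3C6 hold CACGTG, and GTF3C2 holds the ETS sequence as well. POLR1B and TAF1D, with HCT116 folds above that of GTF2A1, hold neither as an exact match. Only exact strings were searched. On one strand or the other, POLR1B, TAF1D, GTF3C4, GTF2A1 and GTF3C6 hold CTTCCGG, the ETS sequence short of its first letter. MED18 and POLR2C hold the ETS sequence without CACGTG, and of these MED18 had a peak.

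The ETS sequence, the E-box and a YY1 sequence were more frequent in member promoters than in promoters at large, as were CRE and NRF1 sequences at lower counts. Of 126 members, 100 had an entry in the promoter table. The ETS sequence was in 21 of the 100 promoters and in 6.16% of the 15811 promoters of all protein-coding genes with an entry. Among members with a peak in HCT116 it was in 18 of 72, 25%, and among all genes with such a peak in 11%. Members with no peak in either line also held it more often than all such genes, 3 of 26, 11.5%, against 1.95%. CACGTG was in 15 of the 100 promoters, and in 8.82% of all. It was in 12 of 41 members with a peak in both lines, 29.3%, and in 14% of all genes with a peak in both lines. It was in 3 of 31 members with a peak in HCT116 alone, 9.68%, close to the 9.46% of all such genes. Of 26 members with no peak, 13 of them TAF11-like copies, 0 held it, and 6.25% of all genes with no peak did. A 10-letter YY1 sequence built on ATGGC was in 7 of the 100 promoters and 1.88% of all, and each of the 7 had an HCT116 peak, as did 83.9% of all genes whose promoter holds it.

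The other 6 sequences are given by their share of members and then of all promoters. CRE, TGACGTCA, had 5% and 2.56%, and a 10-letter NRF1 palindrome built on GCATGC 4% and 1.77%. SP/KLF, GGGCGG, had 61% and 58.3%, CCAAT 31% and 36.4%, TATAAA 8% and 9.75%, and ACTACAA, of the ZNF143 type, 3% and 3.14%. The median G and C content was 59% in member promoters and 62.7% in all. Both strands were searched, the strings do not contain one another, and matches may overlap in place. The sequences shown in capitals were picked after these shares were seen, and a match describes letters in a 300-base window, not a bound site.

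Of the 8 POLR1 genes, 5 had peaks in both lines, 2 in HCT116 alone and 1 in SW480 alone. POLR1B, the second-largest subunit of polymerase I, had the highest values of its class, with a fold enrichment of 12.7 in HCT116 and 4.05 in SW480. Fold enrichment is the authors' ratio of ChIP signal to local background at the summit, and since depth and input move it, folds are ranked within a line. The POLR1B peaks, at chr2:112541513-112544172 in HCT116 and chr2:112541768-112543038 in SW480, also lie at the end of TTL, a tubulin-modifying enzyme. POLR1A, the largest subunit, had 9.93 and 3.41 from peaks also at the end of PTCD3. POLR1C, a subunit of polymerases I and III, had 7.86 and 3.24. POLR1G had 5.75 and 2.71, and POLR1H 3.79 and 3.21. POLR1F and POLR1E had an HCT116 peak alone, at 6.23 and 4.57. POLR1D, the partner of POLR1C, was counted in SW480 alone with a fold of 2.67. HCT116 had a peak of fold 7.78 inside POLR1D, with its summit 1465 bp from the gene end, so its place among genes bound in SW480 alone rests on the 1 kb limit.

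Of the TAF subunits of SL1, which brings polymerase I to the ribosomal RNA promoter, all 4 had an HCT116 peak. An SW480 peak was at 2 of the 4, and all genes had 44% and 22.1%. TAF1D had 12.3 in HCT116 and 6.70 in SW480, and its HCT116 peak was the widest of any member at 5679 bp. TAF1A had 5.0 and 3.55, while TAF1C and TAF1B were bound in HCT116 alone, with 4.80 and 4.24. Among other polymerase I factors, RRN3 was unbound in both lines and UBTF had 3.68 in HCT116 alone.

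The genes of polymerase II had the fewest SW480 peaks for their number. POLR2I, a small subunit at the jaw of the enzyme, had the highest HCT116 fold of its class, 13.3, at a −log10 q of 71.5, and no SW480 peak within 5 kb. Its peak, chr19:36114056-36115655, also lies at the end of TBCB. POLR2D, which forms the stalk of the enzyme with POLR2G, reached 9.84 in HCT116 at a −log10 q of 34.5, also with no SW480 peak within 5 kb. POLR2B, the second-largest subunit, had 9.72 in HCT116 and 3.62 in SW480 from peaks also at the end of NOA1. POLR2A, the largest and catalytic subunit, had 4.65 and 2.4. POLR2G had 2.55 in HCT116, the lowest fold of any member in that line, and no gene-end peak in SW480. POLR2C and POLR2J lacked a peak in both lines. POLR2M, named with the polymerase but not one of its core subunits, had an HCT116 peak alone at 5.43.

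The subunits that all of the nuclear polymerases share are counted in the POLR2 class, so they are part of its shares. All 5 had an HCT116 peak, POLR2K at 7.74, POLR2L at 4.79, POLR2H at 4.43, POLR2E at 4.29 and POLR2F at 4.28. In SW480, POLR2H was the 1 of the 5 with a peak, at 2.4. That is 20%, with a Wilson interval of 3.62 to 62.4, and over all genes the shares were 44% in HCT116 and 22.1% in SW480. With these subunits and POLR1C and POLR1D set apart, the POLR2 class held 6 bound genes in HCT116 and 2 in SW480. Of the 7 subunits of polymerase II alone, 5 were bound in HCT116, 71.4%, and 2 in SW480, 28.6%.

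All 10 POLR3 genes had an HCT116 peak, and 6 of them an SW480 peak. POLR3D had the highest HCT116 fold at 9.85 and POLR3G, the paralog of POLR3GL, followed at 8.62. Their SW480 folds were 3.56 and 2.48. POLR3B, the second-largest subunit, had 8.06 and 6.36, the highest SW480 fold of the class. POLR3C had 7.25 and 3.72, and POLR3A, the catalytic subunit, 5.08 and 4.09. POLR3GL had 5.22 and 3.91 from peaks at its 3′ end. POLR3E, POLR3K and POLR3F had an HCT116 peak alone, at 6.59, 4.64 and 3.88. Folds in SW480 were thus under those in HCT116 at each of the 6 shared genes, as at nearly all members.

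The factors that guide polymerase III held the highest HCT116 fold of the whole set. GTF3C4, a TFIIIC subunit on chromosome 9 (132670035 to 132694955), had a fold of 17.5 in HCT116 and 4.37 in SW480, from a peak that is also at the end of DDX31. Its HCT116 fold ranked 39 among the 8791 protein-coding genes with a gene-end peak. GTF3C2, on chromosome 2 (27325854 to 27356764), had 14.7 and 2.66, and ranked 97 in HCT116 and 3554 among 4413 genes in SW480. GTF3C6 had 8.89 and 7.05, and ranked 115 in SW480. GTF3A, which is TFIIIA and binds the 5S ribosomal RNA gene, had 6.58 and 3.15. GTF3C5 and GTF3C3 had an HCT116 peak alone at 4.79 and 3.85, and GTF3C1, the largest TFIIIC subunit, was unbound in both lines. Within 1 complex the HCT116 folds therefore ran from no peak to 17.5. Of the other polymerase III factors, BRF1, BRF2 and BDP1 make up TFIIIB with TBP and MAF1 represses the enzyme, and 3 of these 4 genes had an HCT116 peak and 0 an SW480 peak, with BRF2 at 8.92, where all genes had 44% and 22.1%. All 5 subunit genes of SNAPc, which serves small nuclear RNA genes, had an HCT116 peak and 0 had an SW480 peak.

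**Figure D2:**
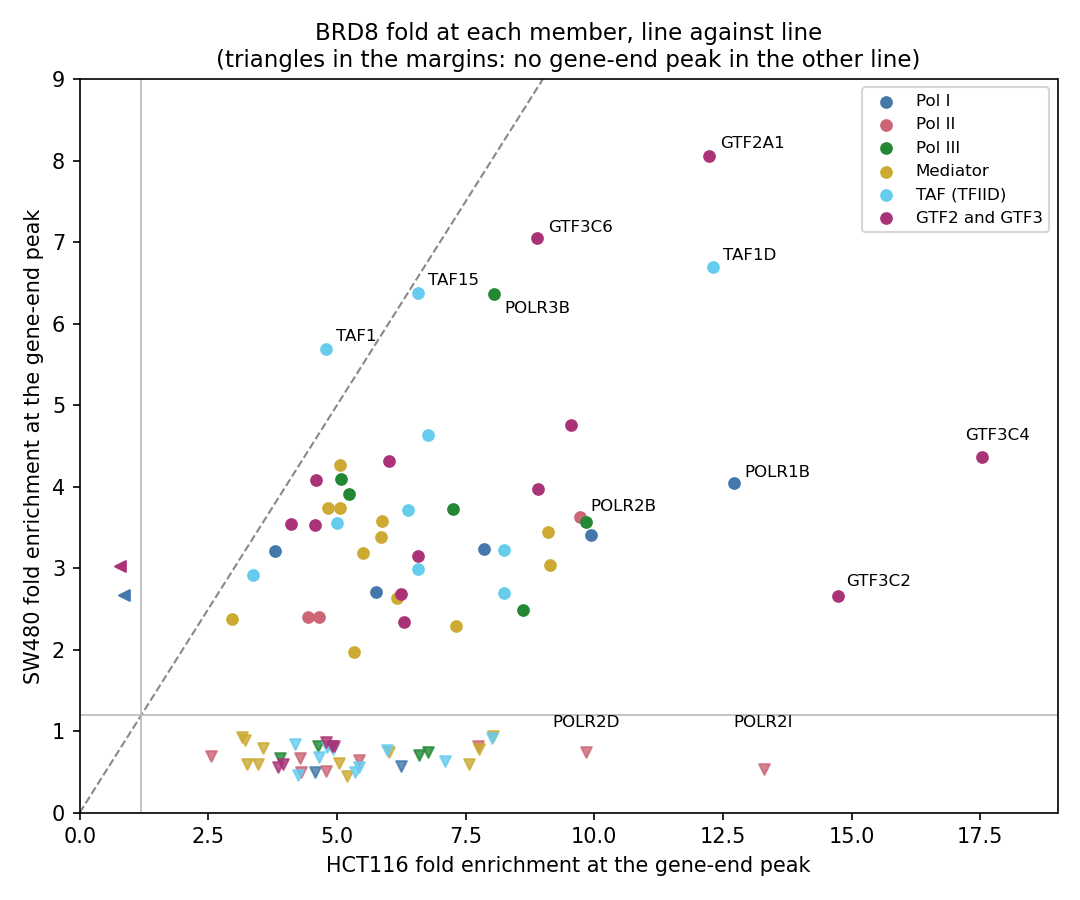
Authors' fold enrichment at the gene-end peak of each member, HCT116 on the x axis and SW480 on the y axis, coloured by class, with triangles in the margins for members with a gene-end peak in 1 line alone and a dashed line of equal fold. TAF1 alone lies above the line of equal fold, GTF3C4 and GTF3C2 lie farthest to the right, and POLR2I and POLR2D lead the members with no SW480 peak.

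Mediator genes were bound in HCT116 across the head, middle and tail modules, and in SW480 by count mostly in the head and middle. The head, which contacts polymerase II, had 7 of 9 genes bound in HCT116 and 5 in SW480. The middle had 8 of 9 and 6. The tail, which contacts activators, had 6 of 8 and 1, and the kinase module, a detachable part that regulates the rest, had 2 of 4 and 0. The share over all genes was 44% in HCT116 and 22.1% in SW480. The SW480 Wilson intervals of the head (26.7 to 81.1), the middle (35.4 to 87.9) and the tail (2.24 to 47.1) overlap. MED22 had the highest HCT116 fold of the class at 9.14 and 3.04 in SW480, from peaks also at the end of RPL7A, a ribosomal protein gene. MED19 had 9.10 and 3.44 from peaks also at the end of TMX2. MED20 had 7.32 and 2.29, MED17, the head scaffold, 5.87 and 3.58, and MED10 6.17 and 2.63. The highest SW480 folds were those of MED4 at 4.26, MED31 and MED28 at 3.73 each, MED17 at 3.58 and MED19 at 3.44. MED8 had 5.33 in HCT116 and 1.97 in SW480, the lowest fold of any member in that line and just past the peak threshold, with a −log10 q of 1.31. MED7 with 5.86 and 3.38, MED26 with 5.50 and 3.19, and MED23 with 2.96 and 2.38 completed the shared set.

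Of the 11 Mediator genes with an HCT116 peak alone, MED18 was highest at 8.03, followed by MED13 at 7.76, MED11 at 7.57, MED29 at 6.01 and MED16 at 5.19. MED24, MED13L, MED15, MED21, MED25 and MED1 ranged from 3.14 at MED1 to 5.05 at MED24. SW480 had a peak of fold 3.31 at 3783 bp outside MED1. MED1, the subunit known for binding nuclear receptors, thus had 1 of the lower HCT116 folds of the class. MED29 shares its peak with PAF1, an elongation factor gene. MED6, MED9, MED12, MED12L, MED14, MED27 and MED30 were unbound in both lines. MED14, the backbone that joins the modules, is among them, as is MED12, which activates the CDK8 kinase. The cyclin-dependent kinases of that module differed, with no gene-end peak at CDK8 and an HCT116 peak of fold 8.62 at CDK19, its paralog.

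TFIID, the complex that recognises polymerase II promoters, had 12 of its 13 TAF genes bound in HCT116 and 5 in SW480. All genes had 44% and 22.1%, and the SW480 Wilson interval of TFIID, 17.7 to 64.5, includes the latter. TAF9, which shares its peak with AK6 and RAD17, had the highest HCT116 fold at 8.25 and 2.69 in SW480. TAF6 followed at 8.0 and TAF2 at 7.09, both with no SW480 gene-end peak. TAF12 had 6.76 and 4.64, TAF13 6.38 and 3.72, and TAF3, which reads a histone methyl mark of active promoters, 3.36 and 2.92. TAF8, TAF7, TAF5, TAF10 and TAF11 had an HCT116 peak alone, from 5.98 at TAF8 to 4.19 at TAF11. TAF1, the largest TFIID subunit, on the X chromosome (71366357 to 71530525), had 4.78 in HCT116 and 5.68 in SW480. It was the 1 member of 49 with a higher fold in SW480, and over all genes bound in both lines 7.58% had a higher fold there. SW480 peaks of fold 4.36 and 4.74 lay 1644 bp outside TAF8 and 2823 bp outside TAF10. TAF4 was unbound in both lines. Among paralogs of TFIID subunits, TAF4B had an HCT116 peak alone at 5.34, and TAF1L, TAF7L and TAF9B had none. TBP, the partner of the TAFs, was likewise unbound.

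TAF15, TAF5L and TAF6L, which lie outside TFIID, were bound in both lines. TAF15, an RNA-binding protein of the FET family, had nearly equal folds of 6.57 and 6.37. TAF5L, a SAGA subunit, had 8.24 and 3.22 from peaks also at the end of URB2. TAF6L, also of SAGA, had an HCT116 fold of 6.57 and an SW480 fold of 2.99, and the peaks were at opposite ends of the gene. The HCT116 peak lay at the 3′ end, beside TMEM179B, and the SW480 peak at the 5′ end, beside TMEM223.

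The general factors of polymerase II were bound in most cases. GTF2A1, the large TFIIA subunit on chromosome 14 (81175452 to 81221390), had 12.2 in HCT116 and 8.05 in SW480, the highest SW480 fold of the whole set, with rank 59 of 4413 genes. GTF2A2, the small TFIIA subunit, had an HCT116 peak alone at 3.96. GTF2B, which is TFIIB, had 4.10 and 3.54, and the TFIIE subunits GTF2E2 and GTF2E1 had 6.25 and 2.68, and 4.59 and 4.08. Both TFIIF subunits, GTF2F1 and GTF2F2, were bound in HCT116 alone, with 4.93 and 4.91. Of TFIIH, which opens DNA and phosphorylates polymerase II, GTF2H1 had 9.54 and 4.76 from peaks also at the end of HPS5, GTF2H3 8.91 and 3.97 from peaks also at the end of EIF2B1, GTF2H4 6.0 and 4.32, and GTF2H5 4.57 and 3.53. The GTF2H4 peaks lay at the 3′ end of the gene, which adjoins VARS2, a mitochondrial tRNA synthetase gene. GTF2H2 was unbound in both lines. The TFIIH partners outside the name rule were CDK7, CCNH, MNAT1, ERCC2 and ERCC3, of which 4 had an HCT116 peak and 2 an SW480 peak, with none at ERCC2. These are shares of 80% and 40%, where all genes had 44% and 22.1%.

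GTF2I and GTF2IRD1, neighbours on chromosome 7, belong to the TFII-I family. GTF2I had 6.31 and 2.34. GTF2IRD1 was the other member counted in SW480 alone, with a fold of 3.03 and a summit 953 bp from the gene end. HCT116 had a peak of fold 5.02 there too, with its summit 1023 bp away, just past the limit. Every one of the 51 SW480 gene-end peaks of members overlapped an HCT116 region by at least 1 bp, and over all genes with an SW480 gene-end peak 90.4% did.

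**Figure D3:**
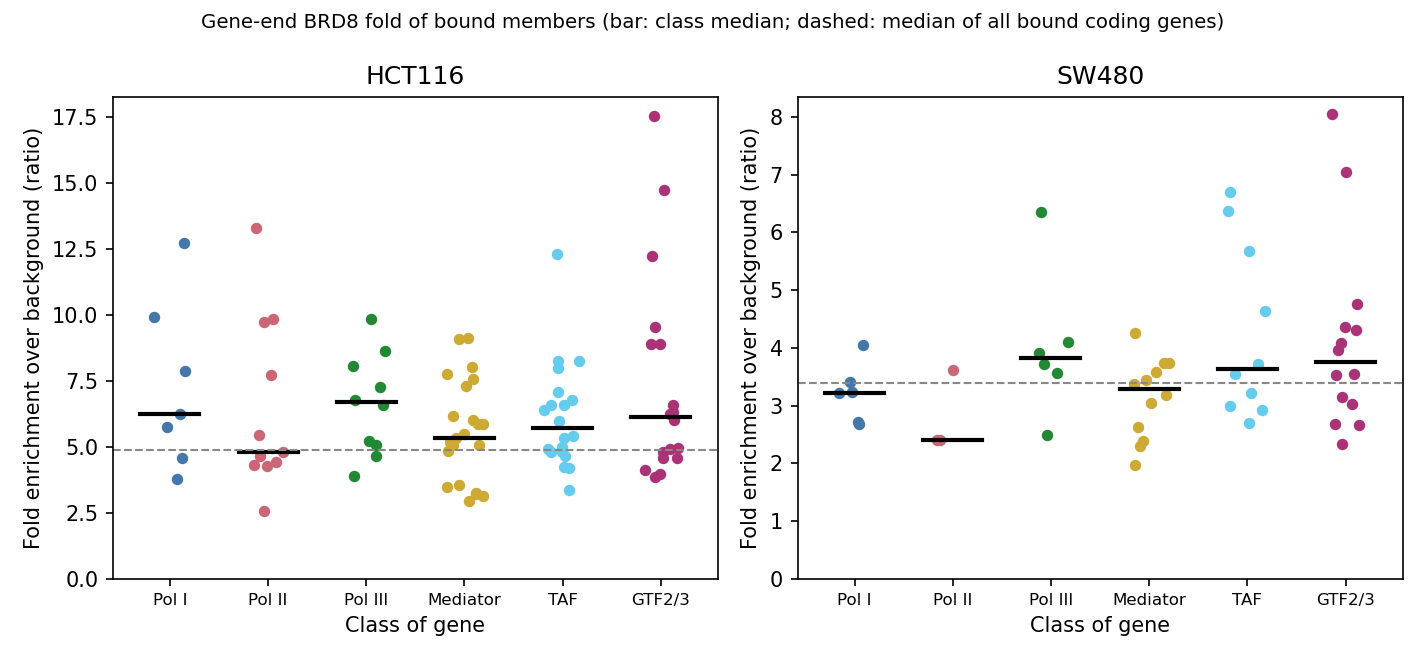
Authors' fold enrichment of every member with a gene-end peak, by class, with HCT116 on the left and SW480 on the right on separate scales, black bars for class medians and a dashed line for the median of all protein-coding genes with a gene-end peak in that line. The HCT116 medians run from 4.79 for POLR2 to 6.68 for POLR3 genes, and the SW480 medians from 2.4 for POLR2 to 3.82 for POLR3 genes.

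Members with a peak had a median fold somewhat over that of all bound genes. The median HCT116 fold was 5.75 over the 89 members and 4.87 over all 8791 bound genes, and 60 of the 89 were above the latter. In SW480 the medians were 3.53 and 3.40, and 28 of 51 were above the latter. POLR2 genes had the lowest class median in both lines, at 4.79 and 2.4, and POLR3 genes the highest, at 6.68 and 3.82. An HCT116 fold of 8 or more was found at 21 members, and at 6.29% of all genes, and a fold of 10 or more at 6 members, GTF3C4, GTF3C2, POLR2I, POLR1B, TAF1D and GTF2A1, and at 2.88% of all genes. In HCT116 the folds of all classes overlapped widely, and POLR2I at 13.3 shows that the class of lowest median also held 1 of the highest folds.

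Whether a member was also bound in SW480 went with the strength of its HCT116 peak. Members bound in both lines had a median HCT116 fold of 6.38 and −log10 q of 21.4, and members bound in HCT116 alone 4.91 and 11.8. Over all genes the corresponding values were 6.17 and 19.4, and 4.19 and 7.95. Of members whose HCT116 −log10 q was under 10, 9 of 23 had an SW480 peak, 39.1%, against 22.2% of all genes in that range. From 10 to 20 it was 15 of 31, 48.4% against 49.3%, and from 20 to 30 it was 8 of 15, 53.3% against 70.4%. At 30 or more it was 17 of 20, 85% against 89.5%. The 3 members past 30 with no SW480 gene-end peak were POLR2I, POLR2D and TAF6. TAF6 had an SW480 peak of fold 2.20 inside the gene. Absence from a list that ends at a q threshold does not show absence of BRD8.

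At members bound in both lines the local background, as solved, differed more between the lines than the ChIP pileup did. The pileup, the number of overlapping ChIP fragments at the summit, and the peak caller's local background were solved from the deposited fold and p. The median ratio of SW480 to HCT116 over the 49 members was 0.802 for the pileup, 1.76 for the background and 0.542 for the fold. Over the 4051 genes bound in both lines it was 0.897, 1.71 and 0.559. The background was higher in SW480 at 41 of the 49 members and the pileup at 13. GTF3C2 had a pileup of 82 fragments in HCT116 and 66 in SW480 over backgrounds of 4.63 and 24.2. At GTF2I the pileup was 41 and 66 and the background 5.66 and 27.7, so SW480 had more fragments and the lower fold. At GTF2A1 the pileup was 75 and 81 and the background 5.21 and 9.18. At TAF1 the pileup was 23 and 44 and the background 4.02 and 6.92. No scaling to the depth of each library, which is not given in the files, was added here. The solved background carries any scaling of the input by the peak caller, so its ratio is not a ratio of input fragments. Which of the pileup and the background differs more between the lines could change with scaling for depth.

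**Figure D4:**
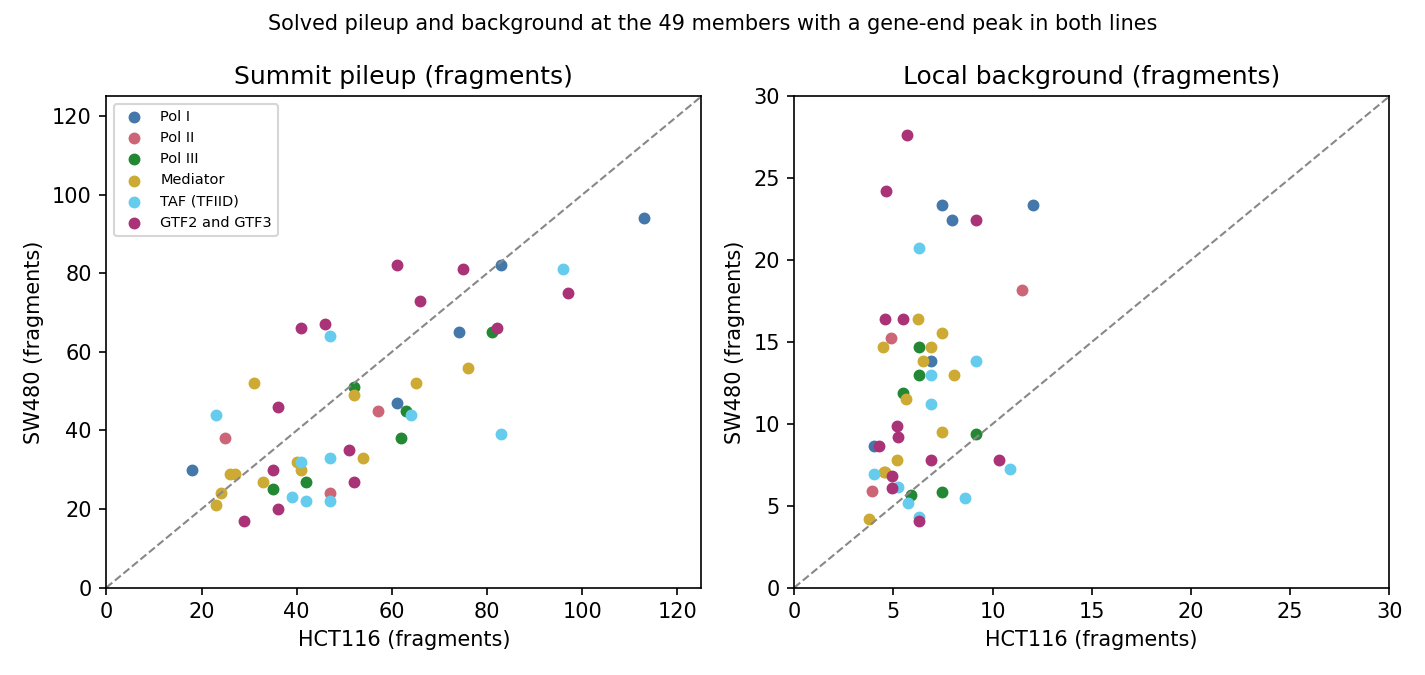
Solved summit pileup (left) and local background (right), in fragments, at the 49 members with a gene-end peak in both lines, HCT116 on the x axes and SW480 on the y axes, with a dashed line of equal values. Pileups scatter on both sides of the line, with 13 higher in SW480, while 41 backgrounds are higher in SW480, up to 27.7 at GTF2I. No scaling to library depth was added, and the background carries any scaling by the peak caller.

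The peaks sat at the starts of the genes, with few summits in the 100 bp just upstream of the 5′ end. Positions are from the 5′ end of the gene, which need not be the start site nearest the summit. At POLR1B the HCT116 summit lay 565 bp from that end and 136 bp from the nearest start site. Strand was known for 72 members bound in HCT116 and 43 in SW480. The counted peak was at the 5′ end at 69 and 41 of them, 95.8% and 95.3%, and over all genes with strand the shares were 94.7% and 95.3%. The exceptions were POLR3GL and GTF2H4 in both lines and TAF6L in HCT116, and in HCT116 each of the 3 also had a peak of lower fold at the 5′ end. Of the 69 HCT116 summits at a 5′ end, 37 lay downstream and 32 upstream of it. From 100 to 200 bp downstream there were 15 summits, and from 300 to 100 bp upstream 19, in bins of 9 and 10. The 100 bp just upstream of the 5′ end held 2. Over all genes the same bins held 21.4%, 11%, 6.98% and 2.22% of HCT116 summits. The first 100 bp downstream held 6 members, and 7.26% over all genes. In SW480, 6 members had a summit 100 to 200 bp downstream and 0 in the 100 bp upstream of the 5′ end. Summits of the lines at 1 gene were a median of 65 bp apart, and within 200 bp at 29 of 49 members. At 45 of the 49 the counted regions overlapped, and GTF2B, GTF2E1, GTF2H5 and TAF6L were the exceptions.

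**Figure D5:**
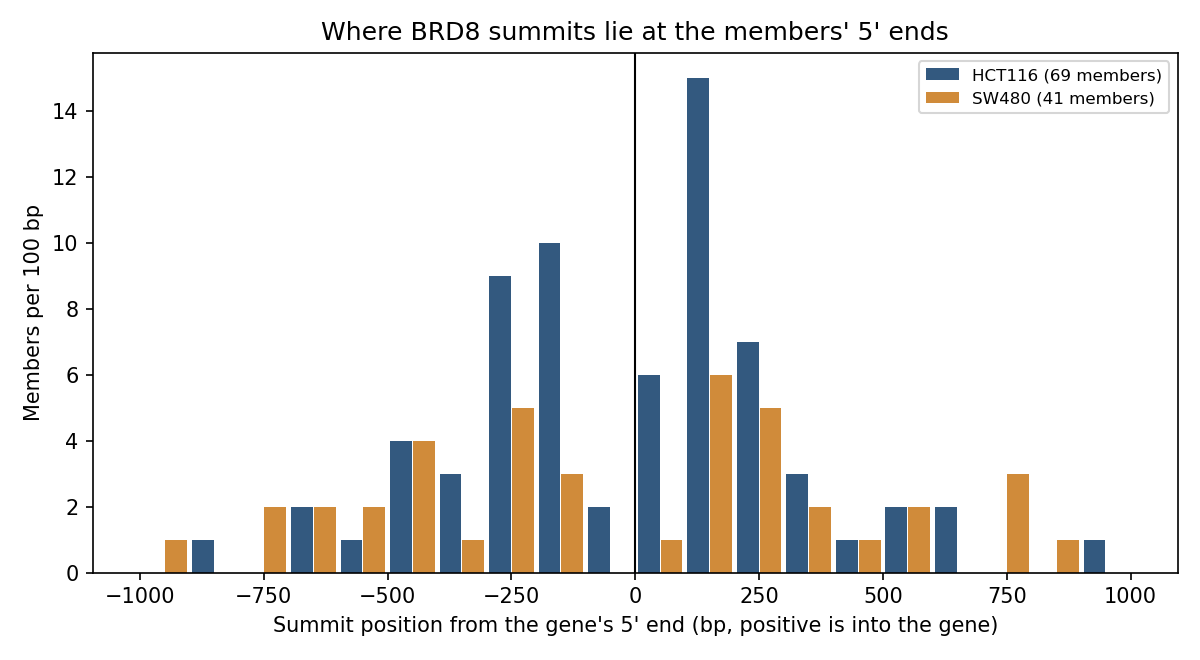
Number of members per 100 bp by the position of the BRD8 summit from the 5′ end of the gene, in bp with positive values into the gene, for 69 members in HCT116 and 41 in SW480. HCT116 summits gather from 100 to 200 bp downstream, with 15 members, and upstream of 100 bp. The 100 bp before the 5′ end hold 2, and the 100 bp after it 6.

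Many of these peaks could belong to a neighbour. In HCT116 the peak was also within 1 kb of an end of another protein-coding gene at 34 of 89 members, 38.2%, and at 32.0% of all bound genes. In SW480 it was so at 25 of 51, 49%, and at 34.1% of all bound genes. By HCT116 fold the leading 5 were GTF3C4 with DDX31, POLR2I with TBCB, POLR1B with TTL, TAF1D with C11orf54 and POLR1A with PTCD3. A peak between a pair of genes cannot be given to either. GTF3C2, GTF2A1 and GTF3C6, by contrast, had no other protein-coding gene end within 1 kb of the summit, although GTF3C2 and GTF2A1 each have an antisense RNA gene there.

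Partner genes that the name rule leaves out had peaks at most genes in HCT116 and at fewer in SW480. Of 50 genes, among them those for elongation, TFIIH, SNAPc, TFIIIB, polymerase assembly and mitochondrial transcription, 43 had an HCT116 peak, 86%, and 19 an SW480 peak, 38%, against 44% and 22.1% of all genes. GPN3, a polymerase assembly factor, was highest with folds of 10.7 and 6.48, followed by SUPT16H, a subunit of the histone chaperone FACT, with 9.14 and 4.32, and BRF2 with 8.92 in HCT116 alone. CDK8, TBP, ERCC2, RRN3, MAF1, SUPT4H1 and RPAP1 were unbound in both lines. Genes of elongation and pausing had 20 of 21 and 11 of 21 bound.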

How the data were processed

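Peak lists of 1 BRD8 ChIP library each from HCT116 and SW480 were analysed; the input libraries have no values of their own in these lists. Reads went through Trimmomatic 0.33 and Bowtie2 2.4.1, per the submitters' processing notes, and the notes also name MACS2, deepTools and the GRCh38 build. No source used here gives read filters, duplicate handling or read totals, so the depth is unknown. The deposited peaks were called per library at a q of 0.05, per the file names, and the lowest −log10 q in them is 1.30 in HCT116 and 1.31 in SW480. The deposited fold enrichment is a ratio of summit signal to local background after 1 is added to each. Significance stands in the deposited files as −log10 p-values and, adjusted for multiple testing, −log10 q-values. The deposited score was left unused, and the deposited summit offset gave the summit position in bp.

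Chromosomes 1 to 22 and X were kept, in 1-based coordinates, leaving out 9 HCT116 and 72 SW480 peaks. A gene was bound where a summit lay within 1 kb of either end in the RefSeq table, and the peak of highest fold stood for it. Strand, start sites and promoter sequence came from a RefSeq promoter table that held 100 of 126 members, with the window nearest the 5′ end of the gene. Pileup and background were solved from fold and p with a relative tolerance of 0.0001, for 99.99% of HCT116 and 99.98% of SW480 peaks, and the solver was tested on simulated data. Python 3.11.15, pandas 2.3.3 and scipy 1.17.1 were used. Counts are given beside those over all protein-coding genes, with no test, since 1 library per line and genes are not replicates. Named were the 5 members of highest fold per class and line, the 5 highest of HCT116 alone per class, those of SW480 alone, unbound members and the strongest partners; other names were added after their values were seen. The values of 1 member are not reported here. The members and lists were chosen with earlier results of these data known.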

Additional observations from a re-analysis of the deposited data

How the results depend on the processing

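Counts were recomputed with stricter peaks, other distances, whole regions in place of summits, the HCT116 list cut to the SW480 length, the 5′ end alone where strand is known, shared subunits set apart and gene copies left out. Of 124 alternative values, 119 stayed within 1.5 times the main count, within 10% of the main median or within the Wilson interval of a motif share, and 5 moved. Some could not move. No left-out gene copy had a peak, so counts without copies were fixed, while the shares rose to 85.6% in HCT116 and 49% in SW480. HCT116 values at a −log10 q of at least 2 were fixed too, since the lowest at a bound member was 2.88. The motif shares set bound members against a set that includes them. At a −log10 q of at least 5, SW480 held 1 POLR2 gene, 7 Mediator genes and 6 TAF genes. With summits within 500 bp, SW480 held 1 POLR1 gene in place of 6. With the shared subunits set apart, HCT116 held 6 POLR2 genes. The total of bound members ran in HCT116 from 83, at a −log10 q of at least 5 or in the list of SW480 length, to 91 within 2 kb, apart from 72 at the 5′ end alone, where members without a strand cannot count. In SW480 it ran from 36 at a −log10 q of at least 5 to 54 within 2 kb, and all genes then had 14.5% and 25.3%. Of members just inside the 1 kb limit, TAF6 lay at 911 bp and MED13L at 837 bp in HCT116, and GTF2IRD1 at 953 bp in SW480, and just outside it GTF2IRD1 lay at 1023 bp in HCT116 and TAF8 at 1644 bp in SW480. No paired analysis was possible because each group has 1 library and no result comes from a test, and no library could be left out.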
